A study of Rattus norvegicus with 15 samples.

Results

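The genes described here are 33 members of the cellular response to low oxygen and of glycolysis. They were picked by symbol, with earlier results of these data known. The data are bulk RNA sequencing of carcinogen-induced rat mammary tumours. Of the 33, 32 had a row among the 17463 gene symbols of the count table, the carbonic anhydrase gene CAR9 under its other symbol CA9. Expression of the oxygen sensor gene EGLN1 was not analysed here. The glucose transporter gene SLC2A3 had 0 to 13 counts per library and was too low to be tested, with 0 in vehicle 2-2 and 13 in midkine 3-2. The remaining 31 were compared with all 11665 genes that passed the expression filter.

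The tumours arose in Fischer rats given N-nitroso-N-methylurea (NMU), an alkylating carcinogen that acts on the mammary gland. Midkine, a heparin-binding growth factor, was injected as protein at 300 ug/kg, 3 times per week over 2 weeks. NMU then followed at 50 mg/kg by the intraperitoneal route, and the course of midkine with its NMU injection was repeated. The comparison group received vehicle, whose composition the labels do not give, and both groups carried NMU-induced tumours. There were 6 vehicle and 9 midkine libraries, each from 1 piece of tumour, and tumours were allowed to reach 4 cm. The labels give no age, no sex and no size of each tumour when it was taken. Vehicle 2-1 and vehicle 2-2 carry the same title number, as do midkine 3-1 and midkine 3-2 and, further, midkine 4-1, midkine 4-2 and midkine 4-3. Shared numbers may mark tumours of the same animal. No label says so, and p-values therefore measure only the spread between these libraries.

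When oxygen is plentiful, prolyl hydroxylases of the EGLN family mark the alpha subunits HIF1A and EPAS1 for destruction. When oxygen falls the subunits last, pair with ARNT and bind short DNA elements near their targets. The targets raise glucose uptake and glycolysis, turn pyruvate to lactate and away from mitochondria, export acid, and send signals to blood vessels. Tumours that outgrow their blood supply often switch on this set around poorly perfused areas, and many cancers run glycolysis hard even with oxygen. Abundance of HIF1A protein is set mainly by its breakdown, which counts of its transcript do not measure.

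Promoters of 6 members are shown because they carry the core of the HIF element, ACGTG or GCGTG, at different places and in different numbers. SLC2A1 encodes the main glucose transporter, CA9 an acid-exporting carbonic anhydrase, LDHA lactate dehydrogenase, BNIP3 a mitophagy receptor, PDK1 a kinase that shuts off pyruvate dehydrogenase, and PFKFB3 an enzyme that makes the activator of phosphofructokinase. Sequences are from RefSeq on the rat assembly GRCr8, which is not the build of the counts. Each run reads 5′ to 3′ along the gene's strand, from 200 bases before the transcription start to 20 bases from it, and capitals mark the motif on either strand, so that CACGT and CACGC are the same motif read from the other side.
SLC2A1: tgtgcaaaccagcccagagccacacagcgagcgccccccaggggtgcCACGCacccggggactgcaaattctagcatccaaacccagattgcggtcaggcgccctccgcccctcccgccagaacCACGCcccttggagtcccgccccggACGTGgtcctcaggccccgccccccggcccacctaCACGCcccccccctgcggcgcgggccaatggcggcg
CA9: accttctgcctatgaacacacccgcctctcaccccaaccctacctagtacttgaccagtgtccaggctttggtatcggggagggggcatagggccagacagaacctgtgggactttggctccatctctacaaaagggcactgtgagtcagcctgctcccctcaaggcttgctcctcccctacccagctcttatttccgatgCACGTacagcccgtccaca
LDHA: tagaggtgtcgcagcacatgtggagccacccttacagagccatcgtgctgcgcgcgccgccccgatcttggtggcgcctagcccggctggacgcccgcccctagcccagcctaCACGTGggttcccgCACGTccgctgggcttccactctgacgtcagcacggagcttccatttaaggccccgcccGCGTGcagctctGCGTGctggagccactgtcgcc
BNIP3: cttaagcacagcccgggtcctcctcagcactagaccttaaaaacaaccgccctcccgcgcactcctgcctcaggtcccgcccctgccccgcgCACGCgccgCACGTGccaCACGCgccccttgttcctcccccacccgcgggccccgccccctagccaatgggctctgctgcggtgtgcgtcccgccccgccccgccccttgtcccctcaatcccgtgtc
PDK1: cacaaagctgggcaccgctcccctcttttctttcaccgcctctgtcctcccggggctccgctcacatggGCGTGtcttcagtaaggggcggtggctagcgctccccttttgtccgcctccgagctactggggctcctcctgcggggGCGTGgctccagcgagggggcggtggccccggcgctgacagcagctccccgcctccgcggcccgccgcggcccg
PFKFB3: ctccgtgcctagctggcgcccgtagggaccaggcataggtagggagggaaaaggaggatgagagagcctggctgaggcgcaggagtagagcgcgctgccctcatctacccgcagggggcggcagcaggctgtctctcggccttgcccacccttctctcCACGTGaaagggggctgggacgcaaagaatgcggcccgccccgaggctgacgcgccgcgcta

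These stretches lie at chr5:138002322-138002541 (plus strand), chr5:62558824-62559043 (plus strand), chr1:106507892-106508111 (plus strand), chr1:203154943-203155162 (minus strand), chr3:77113314-77113533 (plus strand) and chr17:71944733-71944952 (plus strand). The run of CA9 has a single match, at positions 2 to 6 counted from the start, and SLC2A1 has 4 separate ones. In LDHA, BNIP3 and PFKFB3 the letters CACGTG match on both strands. The promoter table covered 29 of the 33 members, EGLN1 included, with 34 promoters of 300 bases. BNIP3L, NDRG1, PGK1 and SLC2A3 were without an entry. The 5-letter motif was found on either strand in 61.8% of the 34, against 41.6% of all 33469 promoters in the table and 60.7% of the 9711 promoters of genes that were tested in these tumours. For 5 letters the members' share was thus near that of other genes expressed here. With 1 more letter (ACGTGC or GCGTGC) the shares were 41.2% (14 of 34), 15.5% and 24.7%, the members' share being the highest. A match is a description of letters and not a bound site.

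Libraries held 4925504 to 8486523 counted reads (median 7252603). Levels are given as CPM, that is, read counts divided by library size, itself adjusted by the trimmed mean of M-values. Midkine 1 stood apart: genes of skeletal muscle made up 28.0% of its counts, against 0.516% or less in the others. Its scaling factor was 0.558, so that its scaled CPM exceed its raw CPM. Log2 fold changes are therefore given with and without it. The muscle myosin gene MYH4 also divides the libraries: midkine 3-1, 3-2, 4-1, 4-2 and 4-3 had at most 1 read of it, and the 6 vehicle libraries and midkine 1, 2, 5 and 6 had at least 461. All 5 libraries nearly without it belong to the midkine group and carry the title numbers 3 and 4. Values within the 10 libraries with MYH4 reads are given for PFKFB3, PFKFB4, NDRG1, ADM and P4HA2. Markers of the labelled mammary tissue were present: 10 luminal epithelial genes summed to 5145 to 7601 CPM in vehicle and 2225 to 12772 CPM in midkine libraries and 8 basal ones to 4772 to 11328 CPM in vehicle and 1912 to 16025 CPM in midkine libraries, with none at 0 in any library. In bulk tissue, fewer cells of a type and less RNA per cell cannot be told apart.

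No member passed the test between midkine and vehicle tumours. With edgeR's quasi-likelihood test and Benjamini-Hochberg adjustment, 0 of 31 members passed an adjusted p of 0.05, beside 0 of all 11665 genes (0%). The smallest adjusted p among the members was 0.399, that of PFKFB3. At an unadjusted p under 0.05 stood 6 members, all higher in midkine tumours (PFKFB3, PFKFB4, NDRG1, ADM, ALDOA and P4HA2). That is 19.4% of the members, beside 10.1% of all genes in either direction, and 7.96% of all genes for the higher direction alone. DESeq2 called 92 genes (0.662%), none of them a member, and put 5 members (16.1%) under an unadjusted p of 0.05, beside 9.73% of all genes. The edgeR count of 6 moved with single libraries. It was 4 of 31 (12.9%) without midkine 1, beside 10.3% of all genes, and 4 without midkine 4-3 (10.9% of all genes). It was 2 of 31 (6.45%) without midkine 3-2 (9.27%), vehicle 2-1 (6.76%), vehicle 2-2 (7.85%) or vehicle 6 (7.7%), and 1 of 31 without vehicle 4 (9.94%). It was 5 of 31 without vehicle 5 (979 of 11750 genes) or midkine 6 (1241 of 11610), and 7 of 31 without vehicle 3 (1046 of 11773). PFKFB3 was under that limit in every one of these fits. The counts of 1 and 2 were under the share of all genes, and those of 4, 5 and 7 were above it.

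Most members leaned to higher levels in midkine tumours, by small amounts. Of the 31, 24 had a log2 fold change above 0 (77.4%, beside 55.7% of all genes), and their median was 0.37 against 0.040 over all genes. Without midkine 1 the counts were 23 (74.2%, beside 52.9%) and the median 0.17 against 0.018. The median was 0.67 without vehicle 3, 0.59 without vehicle 5 and 0.24 without midkine 4-3. Within the 10 libraries with MYH4 reads it was 0.61, and within those 10 without midkine 1 it was 0.29. No member had vehicle and midkine libraries that did not overlap, beside 2 of all genes (0.0171%).

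**Figure D1:**
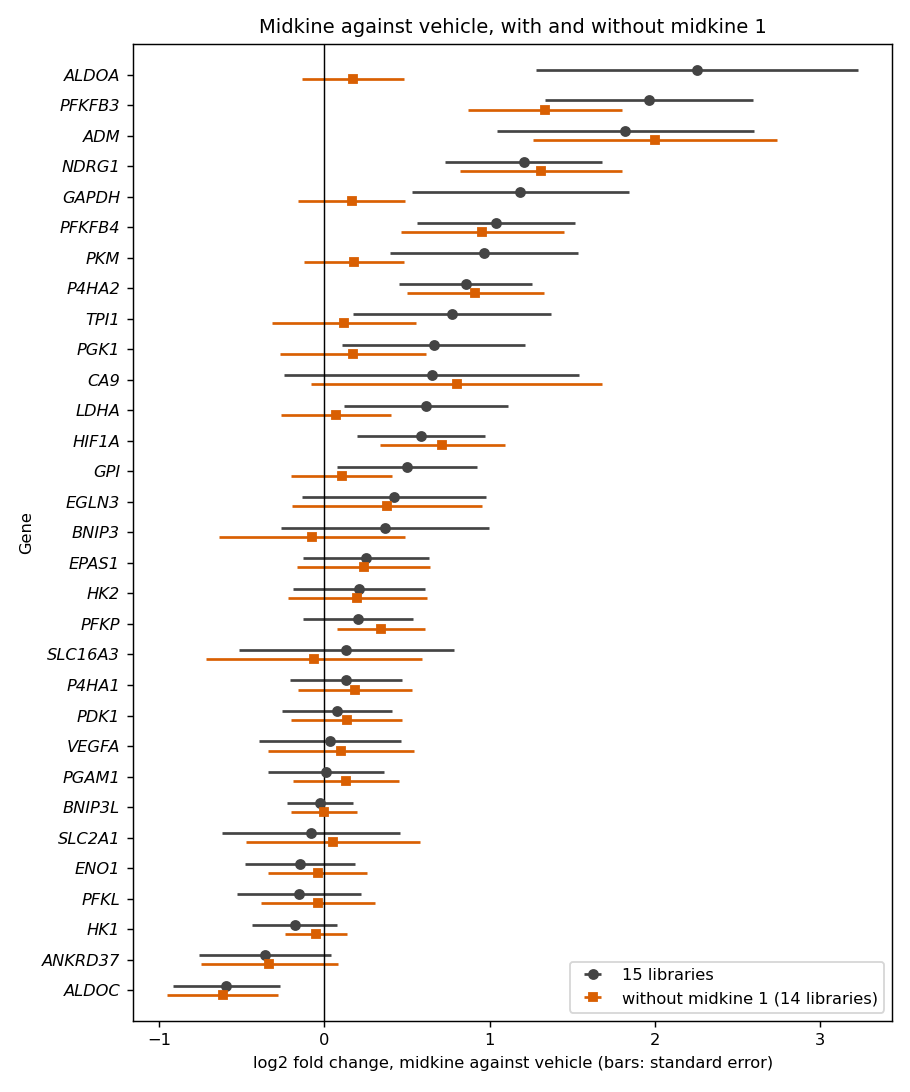
Log2 fold change of the 31 tested members, midkine against vehicle (horizontal axis), from edgeR's quasi-likelihood fit. Circles use 15 libraries, squares leave out midkine 1, and bars are 1 standard error. ALDOA moves from 2.25 to 0.17 and GAPDH from 1.18 to 0.17 when midkine 1 is left out, while PFKFB3, ADM, NDRG1 and P4HA2 stay between 0.91 and 2.00 without it.

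Of the transcripts of the HIF subunits, HIF1A was very high in a single midkine library and otherwise similar in range between the groups. HIF1A was measured at 80.5 to 133 CPM (median 104) in vehicle and 61.0 to 519 CPM (median 113) in midkine libraries. Midkine 3-2 held 519 CPM and the next library, midkine 4-3, 148, while midkine 1 was the lowest of all with 61.0. For HIF1A that made a log2 fold change of 0.58 (SE 0.39, adjusted p = 0.657), 0.71 (SE 0.38) without midkine 1 and 0.082 (SE 0.18) without midkine 3-2. DESeq2, which replaced the count of midkine 3-2 by an imputed one, gave 0.089. EPAS1, the subunit best known from endothelium and other specialised cells, was measured at 26.2 to 71.2 CPM (median 60.8) in vehicle and 17.7 to 121 CPM (median 57.0) in midkine libraries. Midkine 1 (75.0 CPM), 3-2 (118) and 4-2 (121) lay above every vehicle library and midkine 2 (17.7) below. The log2 fold change of EPAS1 was 0.25 (SE 0.38), 0.24 (SE 0.40) without midkine 1 and 0.087 (SE 0.37) without midkine 3-2. EGLN3, an oxygen sensor that is itself a HIF target, was measured at 33.8 to 160.3 CPM (median 54.5) and 19.4 to 236 CPM (median 75.2), with a log2 fold change of 0.42 (SE 0.56), or 0.38 (SE 0.58) without midkine 1. For EGLN3 it was 0.17 without midkine 4-3, 0.26 without vehicle 2-2, 0.27 without vehicle 4, 0.27 without midkine 6 and 0.77 without vehicle 3.

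Among the signals to vessels and the acid-exporting genes, ADM had the largest difference. It encodes adrenomedullin, a peptide that widens and stabilises vessels. Its levels were 3.02 to 34.9 CPM (median 4.22) in vehicle and 4.29 to 114 CPM (median 21.8) in midkine libraries, or 7.48 to 114 CPM (median 27.4) without midkine 1. Vehicle 3 (34.9 CPM) and vehicle 5 (16.3) lay within the midkine range also without midkine 1, and the other 4 vehicle libraries were at or under 4.45 CPM, near midkine 1 (4.29). Midkine against vehicle, ADM had a log2 fold change of 1.82 (SE 0.78, adjusted p = 0.448), 2.00 (SE 0.74) without midkine 1, 1.42 (SE 0.74) without midkine 3-2 and 0.86 (SE 0.84) within the 10 libraries with MYH4 reads. VEGFA, the central growth factor for vessels, stood at 101 to 449.6 CPM (median 227) in vehicle and 91.7 to 472 CPM (median 266) in midkine libraries. Its log2 fold change was 0.033 (SE 0.43, adjusted p = 0.990), and 0.10 (SE 0.44) without midkine 1. CA9, among the most specific HIF targets, varied more between libraries than any other member (SD of log2 CPM 1.93), from 2.23 CPM in vehicle 6 to 117 in midkine 2. High and low libraries occurred in both groups, and its log2 fold change of 0.65 (SE 0.89) became 0.80 (SE 0.88) without midkine 1, 0.29 without midkine 2, 0.40 without vehicle 6 and 1.28 without vehicle 5.

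Transporters of fuel and waste gave values near 0. SLC2A1 ranged over 146 to 971 CPM (median 271) in vehicle and 109 to 805 CPM (median 306) in midkine libraries, and its log2 fold change of -0.081 (SE 0.54) turned to 0.053 without midkine 1. SLC16A3 encodes the transporter that exports lactate. It stood at 10.6 to 127 CPM (median 32.6) and 9.62 to 129.5 CPM (median 50.2), and its value of 0.13 (SE 0.65) turned to -0.064 without midkine 1.

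**Figure D2:**
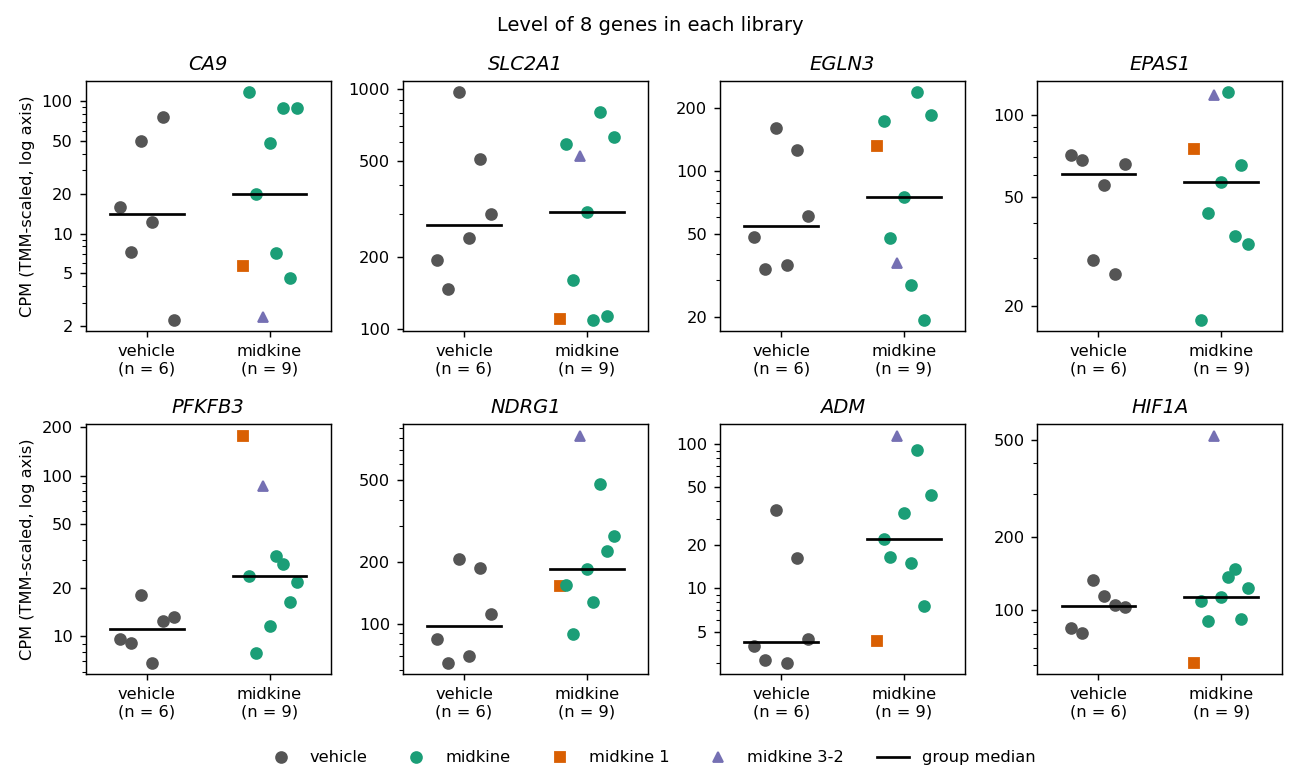
CPM on a log axis of 8 members in each of 15 libraries, vehicle on the left and midkine on the right of each panel, with the group median as a bar. Midkine 1 (square) and midkine 3-2 (triangle) are marked. PFKFB3, NDRG1 and ADM have higher medians in midkine libraries with overlap, CA9, SLC2A1 and EGLN3 spread over wide ranges in both groups, and HIF1A lies between 61.0 and 148 CPM everywhere but in midkine 3-2.

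Control of entry into glycolysis held the member with the smallest p. PFKFB3 makes fructose 2,6-bisphosphate, which activates phosphofructokinase. It was measured at 6.80 to 18.0 CPM (median 11.0) in vehicle and 7.87 to 178 CPM (median 23.6) in midkine libraries. Midkine 1 (178 CPM) and midkine 3-2 (86.4) were far above the rest, and 4 more midkine libraries, from 21.7 to 31.8 CPM, also lay above the highest vehicle library. Midkine 3-1 (7.87 CPM), 4-1 (11.6) and 5 (16.4) lay within the vehicle range. Between the groups its log2 fold change came to 1.96 (SE 0.63, adjusted p = 0.399), 1.33 (SE 0.47, adjusted p = 0.347) without midkine 1, 1.79 (SE 0.64) without midkine 3-2 and 2.38 (SE 0.64) within the 10 libraries with MYH4 reads. Within those and without midkine 1 it was 0.84. DESeq2 gave 2.02 with an adjusted p of 0.0624. Its paralog PFKFB4 stood at 2.18 to 4.50 CPM (median 3.31) in vehicle and 2.49 to 23.0 CPM (median 4.32) in midkine libraries. The log2 fold change of PFKFB4 was 1.04 (SE 0.48), 0.96 (SE 0.49) without midkine 1 and 0.54 (SE 0.33) without midkine 3-2, its highest library. It was 0.28 without both, 0.65 (SE 0.43) within the 10 libraries with MYH4 reads and 0.019 within those without midkine 1.

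Enzymes of the same stretch that carry the flux itself had smaller differences. PFKL, a phosphofructokinase subunit, stood at 218 to 585 CPM (median 269) in vehicle and 103 to 533 CPM (median 268) in midkine libraries, with a log2 fold change of -0.15 (SE 0.37) and -0.039 (SE 0.35) without midkine 1. PFKP, the subunit common in platelets and tumours, stood at 62.6 to 157 CPM (median 122) and 35.2 to 232 CPM (median 122), with 0.20 (SE 0.33) and 0.34 (SE 0.27). The hexokinases trap glucose in the cell. HK1 stood at 269 to 347 CPM (median 312) and 88.1 to 453 CPM (median 267), with -0.18 (SE 0.26) and -0.051 (SE 0.19). HK2, the inducible form, stood at 58.4 to 232 CPM (median 96.7) and 49.7 to 289 CPM (median 152), with 0.21 (SE 0.40) and 0.20 (SE 0.42). GPI, the isomerase that follows, stood at 388 to 1107 CPM (median 482) and 301 to 2573 CPM (median 641), with 0.50 (SE 0.42) and 0.10 (SE 0.31). For all 5 the ranges of the groups overlapped. Of the 7 members of this role, 5 were higher and 2 lower in midkine tumours, with and without midkine 1.

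From aldolase to enolase, the larger differences depended on midkine 1. ALDOA, the muscle and general aldolase, stood at 944 to 2177 CPM (median 1027) in vehicle and 810.0 to 46662 CPM (median 1550.3) in midkine libraries. Without midkine 1 the highest midkine value was 2616 CPM. This gave a log2 fold change of 2.25 (SE 0.98, adjusted p = 0.455) with it and 0.17 (SE 0.31) without, and DESeq2, which imputed that count, gave 0.16. GAPDH, often used as a reference gene, stood at 968 to 2582 CPM (median 1261) in vehicle and 867 to 3255 CPM (median 1421) in midkine libraries other than midkine 1, and its log2 fold change moved from 1.18 (SE 0.66) to 0.17 (SE 0.32) without that library. PGK1, the kinase that yields ATP, stood at 286 to 1520.2 CPM (median 338) in vehicle libraries. Without midkine 1, which held 3156, midkine libraries had 331 to 1173 CPM of PGK1 (median 548). The log2 fold change of PGK1 moved from 0.66 (SE 0.55) to 0.17 (SE 0.44) without midkine 1. TPI1, the triose isomerase, stood at 15.2 to 70.1 CPM (median 21.9) in vehicle libraries. Without midkine 1, which held 209, midkine libraries had 14.1 to 62.1 CPM of TPI1 (median 25.3). The log2 fold change of TPI1 moved from 0.77 (SE 0.60) to 0.12 (SE 0.43) without midkine 1. Without vehicle 3 instead, PGK1 had 1.19 and TPI1 1.20. The differences of the mutase PGAM1 and the enolase ENO1 were not higher with midkine 1 than without it. PGAM1 stood at 315 to 1068 CPM (median 419.8) in vehicle and 208 to 966 CPM (median 543) in all midkine libraries. Its log2 fold change was 0.010 (SE 0.35), or 0.13 (SE 0.32) without midkine 1. ENO1 stood at 1134 to 2135 CPM (median 1395) in vehicle and 539 to 2298 CPM (median 1259) in all midkine libraries. Its log2 fold change was -0.15 (SE 0.33), or -0.039 (SE 0.30) without midkine 1. ALDOC, the aldolase best known from brain, had the most negative value of any member, -0.60 (SE 0.32) and -0.62 (SE 0.34) without midkine 1, with 90.6 to 251 CPM (median 133) in vehicle and 32.4 to 168 CPM (median 92.5) in midkine libraries. Without vehicle 6, its highest library, ALDOC had -0.38.

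At the fate of pyruvate the picture was the same. LDHA, which turns pyruvate to lactate, stood at 632 to 2183 CPM (median 852) in vehicle and 544 to 1869.5 CPM (median 1013) in midkine libraries without midkine 1, which itself held 6003. The difference on the log2 scale was 0.61 (SE 0.49, adjusted p = 0.738) with midkine 1, 0.068 (SE 0.33) without it, and 0.93 without vehicle 3. PKM, pyruvate kinase, stood at 582 to 1415 CPM (median 680.0) and 493 to 1651 CPM (median 797) without midkine 1, and went from 0.97 (SE 0.57) to 0.18 (SE 0.30). PDK1, the brake on pyruvate entry into mitochondria, stood at 23.5 to 65.2 CPM (median 30.4) and 14.4 to 69.3 CPM (median 27.4), with 0.076 (SE 0.33) and 0.13 (SE 0.34).

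Of the remaining targets, NDRG1 and P4HA2 leaned highest. NDRG1, a stress gene long used as a marker of low oxygen, was measured at 64.5 to 207 CPM (median 98.0) in vehicle and 89.5 to 824 CPM (median 185) in midkine libraries. The log2 difference was 1.21 (SE 0.48, adjusted p = 0.431), 1.31 (SE 0.49) without midkine 1, 0.80 (SE 0.38) without midkine 3-2 and 0.75 (SE 0.36) within the 10 libraries with MYH4 reads. P4HA2, a collagen prolyl hydroxylase, was measured at 23.8 to 57.6 CPM (median 38.9) and 32 to 227 CPM (median 54.0), and the highest value was that of midkine 5. There the sum of the 10 tested fibroblast and matrix genes, of 11 listed, was 145272 CPM, against at most 11046 in vehicle libraries. The part of these cells in the result was not tested. The log2 fold change of P4HA2 was 0.85 (SE 0.40), 0.91 (SE 0.42) without midkine 1, 1.28 (SE 0.45) within the 10 libraries with MYH4 reads and 0.43 without midkine 5.

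The last 4 members had log2 fold changes from -0.36 to 0.37. P4HA1, the other collagen hydroxylase, stood at 67.7 to 217 CPM (median 83.6) in vehicle and 67.5 to 205 CPM (median 131) in midkine libraries, with 0.13 (SE 0.34) and 0.18 (SE 0.34) without midkine 1. The mitophagy receptor BNIP3 stood at 36.4 to 188 CPM (median 57.6) and 13.8 to 368 CPM (median 86.5), and turned from 0.37 (SE 0.63) to -0.076 (SE 0.56), while without vehicle 3 it was 0.71. BNIP3L, its relative, had the smallest SD of log2 CPM of any member over 15 libraries (0.38), while without midkine 1 that of HK1 was smaller (0.34 against 0.39). BNIP3L stood at 201 to 383 CPM (median 235) and 127 to 319 CPM (median 272), with -0.026 (SE 0.20) and -0.0045 (SE 0.20). ANKRD37, a small ankyrin-repeat HIF target, stood at 7.05 to 19.1 CPM (median 10.1) and 1.10 to 13.4 CPM (median 10.2), with -0.36 (SE 0.40) and -0.33 (SE 0.42), and -0.14 without vehicle 3. Vehicle and midkine libraries overlapped for all 4.

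Variation of these genes lay mostly within the groups. The SD of log2 CPM over 15 libraries had a median of 0.88 over the members and 0.51 over all genes, and 0.79 and 0.46 without midkine 1. The share of that variance lying between vehicle and midkine had a median of 4.27% over the members, near the 4.11% of all genes. Without midkine 1 it was 1.41% against 5.01%. With all 15 libraries it was largest for ADM (28.1%) and PFKFB3 (28.1%) and smallest for PGAM1 (0.0124%).

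Much of the within-group variation was shared between members. Vehicle 3, vehicle 5, midkine 2, midkine 4-3 and midkine 6 were the 5 highest of the 14 libraries other than midkine 1 for 17 of 31 members (54.8%). The same held for 139 of 11665 genes (1.19%). This set of libraries was noticed in the members' values, so its count is a description and was not tested. The 17 were VEGFA, CA9, PGK1, LDHA, PFKL, BNIP3, EGLN3, GPI, TPI1, GAPDH, PGAM1, ENO1, ALDOA, PKM, PDK1, P4HA1 and SLC16A3, which span vessel signals, acid and lactate export, glycolysis and mitophagy. With all 15 libraries ranked, midkine 1 included, the count was 7.

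CA9, SLC16A3 and PGK1 serve as examples of the pattern. CA9 was 49.7 CPM in vehicle 3, 76.1 in vehicle 5, 117 in midkine 2, 89.3 in midkine 4-3 and 88.5 in midkine 6. Next came midkine 4-1 with 48.0 CPM and midkine 3-1 with 19.8. SLC16A3 was 127, 127, 122, 96.9 and 86.6 CPM in the same order, followed by 50.2 in midkine 4-1. Both treatments therefore contributed libraries to the upper end of this ranking, 2 of 6 vehicle and 3 of the 8 midkine libraries ranked. PGK1 ran from 916 to 1520.2 CPM in 4 of those 5 libraries with vehicle 5 at 826, and midkine 4-1 followed with 693. Midkine 1, left out of the ranking, held 5.71 CPM of CA9. For SLC16A3 (129.5 CPM) and PGK1 (3156 CPM) it was the highest library.

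EPAS1 ran the other way. Its 5 lowest libraries were the same ones: 29.4 CPM in vehicle 3, 26.2 in vehicle 5, 17.7 in midkine 2, 36.1 in midkine 4-3 and 33.7 in midkine 6. Every other library held at least 43.6 CPM. It was the only member of the 31 with this order, which 63 of all genes had (0.540%). Endothelial cells are rich in EPAS1, and their 10 markers summed to 289 CPM in vehicle 3, 458 in vehicle 5, 300.0 in midkine 2, 451 in midkine 4-3 and 567 in midkine 6. In vehicle 2-1 and vehicle 6 the sum was lower than in 3 of these, 334 and 333 CPM, with EPAS1 at 71.2 and 66.0. Over all libraries the sum was 289 to 638 CPM in vehicle and 300.0 to 1234 CPM in midkine libraries, and none of the 10 was at 0 in any library. The part of endothelial cells in the level of EPAS1 was not tested.

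Counted per library, the members tended to lie on the same side of their medians. Of the 31, 28 were above their 15-library median in vehicle 3, 26 in vehicle 5, 26 in midkine 2, 27 in midkine 4-3 and 27 in midkine 6. At the other end, 3 were above it in each of vehicle 2-1, vehicle 2-2, vehicle 4 and midkine 4-2, and 6 in midkine 5. Over all genes the share above the median was 44.6% to 48.9% in every library. The members as a group thus ran high in some tumours and low in others of the same treatment. HK1, ALDOC, PFKFB4 and BNIP3L were among those that did not follow. The sum of the 4 tested adipocyte markers, of 8 listed, was low where the members ran high. It was 51.1 CPM in vehicle 3, 45.4 in vehicle 5, 43.8 in midkine 2, 59.8 in midkine 4-3 and 58.3 in midkine 6. It was 59.5 CPM in vehicle 2-1 and 81.4 to 628 in the others, and 3 of the 8 listed genes were at 0 in some library. The part of fat cells in the members' levels was not tested.

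**Figure D3:**
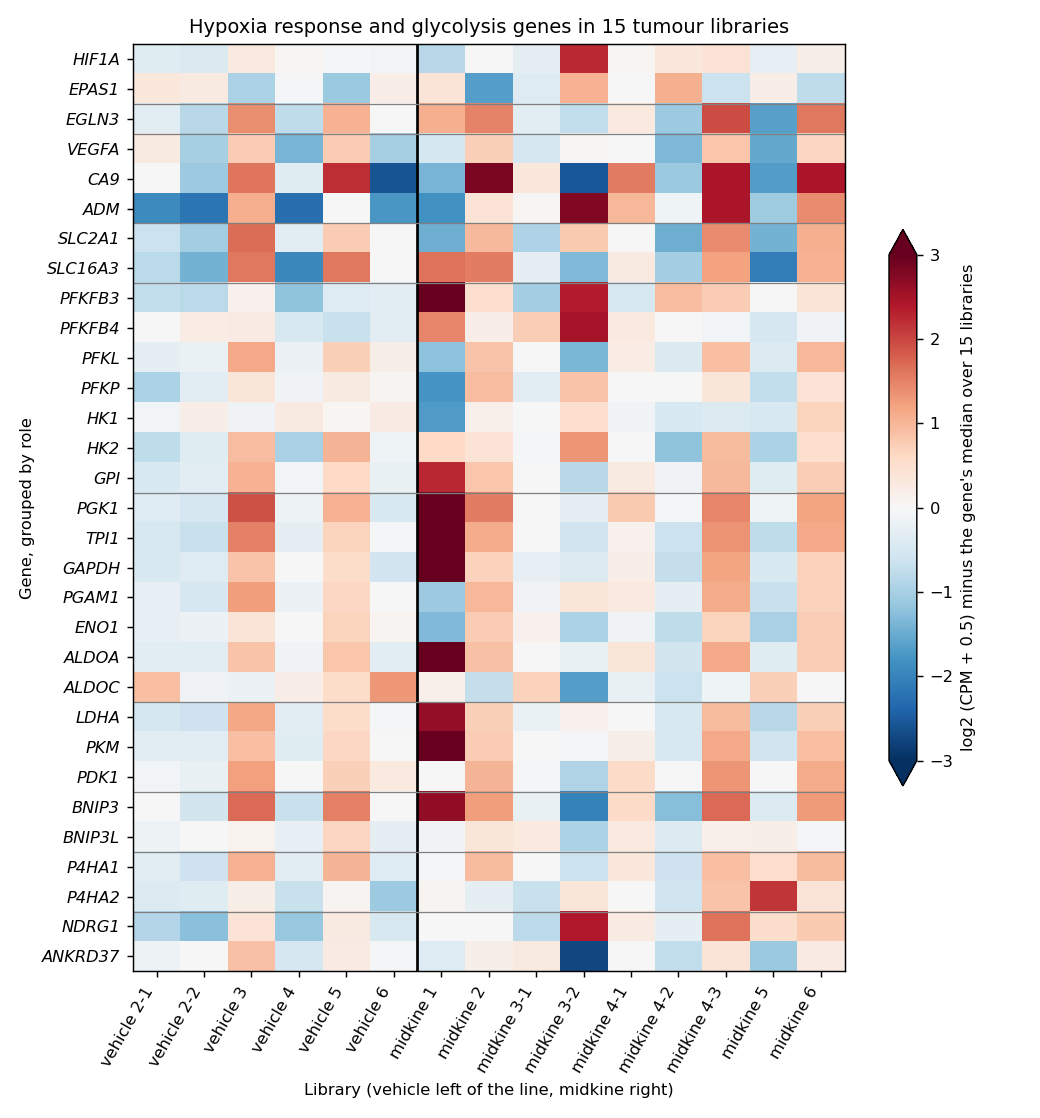
Log2 CPM of 31 members (by role, top to bottom) in 15 libraries, each relative to the gene's own median over the libraries, with vehicle left of the line. Red columns at vehicle 3, vehicle 5, midkine 2, midkine 4-3 and midkine 6 show members above their medians (26 to 28 of 31), EPAS1 is blue in those columns, and midkine 1 and midkine 3-2 hold both the deepest red and the deepest blue of several genes.

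Midkine 1, the library with muscle transcripts, was highest for some glycolytic genes and lowest for others. ALDOA was 46662 CPM there, 40.6 times the median of the other 14 libraries, GAPDH 17714 (13.5 times) and PFKFB3 178 (12.1 times). In raw CPM, by library total alone, ALDOA and GAPDH were 25744 and 9773. PKM (7336 CPM), LDHA, PGK1, GPI, TPI1, BNIP3 and SLC16A3 were also highest in midkine 1. It was lowest of all 15 for ENO1 (539 CPM), PGAM1 (208), PFKP (35.2), HK1 (88.1) and HIF1A.

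At the enolase, mutase and phosphofructokinase steps the muscle paralogs stood high in this library. ENO3, the muscle enolase, was 13549.9 CPM in midkine 1 and 6.35 to 125 elsewhere. PGAM2, the muscle mutase, was 5042 CPM against 2.33 to 33.1. PFKM, the muscle phosphofructokinase, was 7126 CPM against 20.9 to 121. LDHB, the form of lactate dehydrogenase typical of heart, was within the range of the others at 146 CPM. The muscle list held 30 genes, 27 of them in the table and 22 of them tested. The 22 summed to 507661 CPM in midkine 1 and to 468 to 5794 in the others, and 6 of the 27 were at 0 in some library. Other HIF targets lay on both sides there. CA9 was 5.71 CPM, ADM 4.29 and SLC2A1 110.0, each under the median of the other libraries. EGLN3 was 131 CPM (2.40 times that median) and PFKFB4 11.2 (3.00 times). Among other HIF pathway genes, midkine 1 was the highest library for PPP1R3C, a regulator of glycogen synthesis (1251 CPM, next 22), for the glycogen synthase GYS1 (392, next 189) and for the branching enzyme GBE1 (143, next 61.3), also for MXI1 and KLF10.

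**Figure D4:**
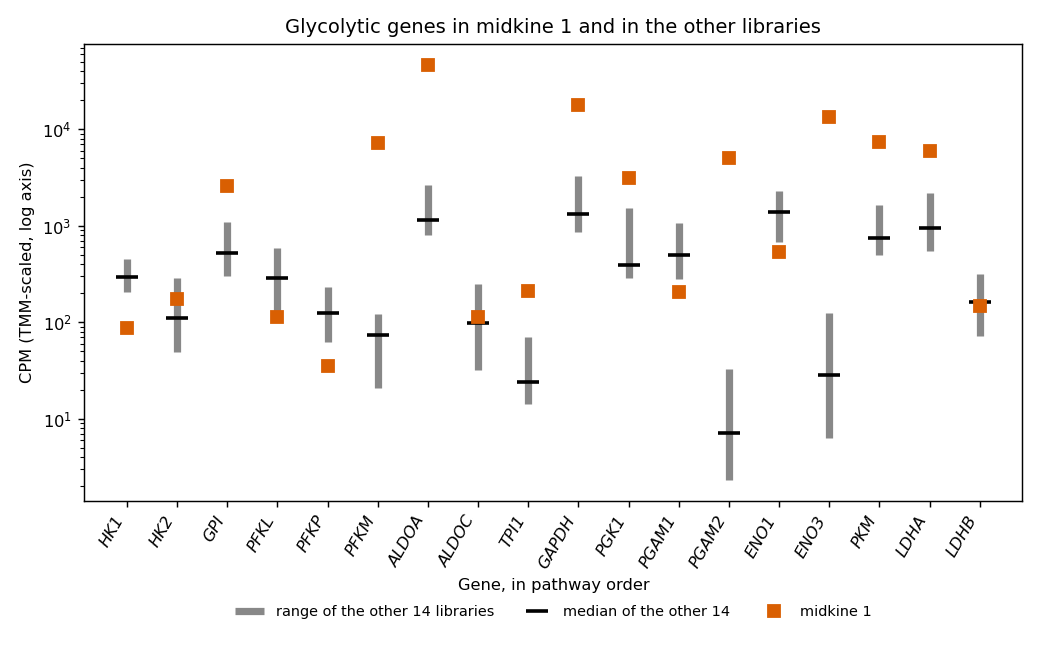
CPM on a log axis of 18 glycolytic genes, ordered along the pathway, in midkine 1 (squares) and as range and median of the other 14 libraries (bars). CPM are not corrected for gene length, so that only values of the same gene compare. Midkine 1 lies above the range for GPI, PFKM, ALDOA, TPI1, GAPDH, PGK1, PGAM2, ENO3, PKM and LDHA. It lies below the range for HK1, PFKP, PGAM1 and ENO1.

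Midkine 3-2 combined the highest and lowest values in another way. It was highest of 15 for HIF1A (519 CPM), NDRG1 (824), ADM (114), PFKFB4 (23.0) and HK2 (289), and second to midkine 1 for PFKFB3. It was lowest for 8 members: ANKRD37 (1.10 CPM), BNIP3 (13.8), BNIP3L, PFKL, GPI, ALDOC, PDK1 and P4HA1, and last but 1 for CA9 with 2.32. Genes known as joint targets of HIF were thus at opposite extremes in this library.

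Outside the members, it was also highest for HMOX1, the stress-inducible haem oxygenase (2102 CPM, next 271) and the chemokine receptor CXCR4 (475, next 176). Its neutrophil sum, over the 4 tested markers of 8 listed, was the largest of the 15 at 80.1 CPM. That sum was 13.5 to 48.0 CPM in vehicle and 10.2 to 80.1 CPM in midkine libraries, with 5 of the 8 listed genes at 0 in some library. The luminal sum of midkine 3-2 was also the largest at 12772 CPM. The part of these cells in these levels was not tested.

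**Figure D5:**
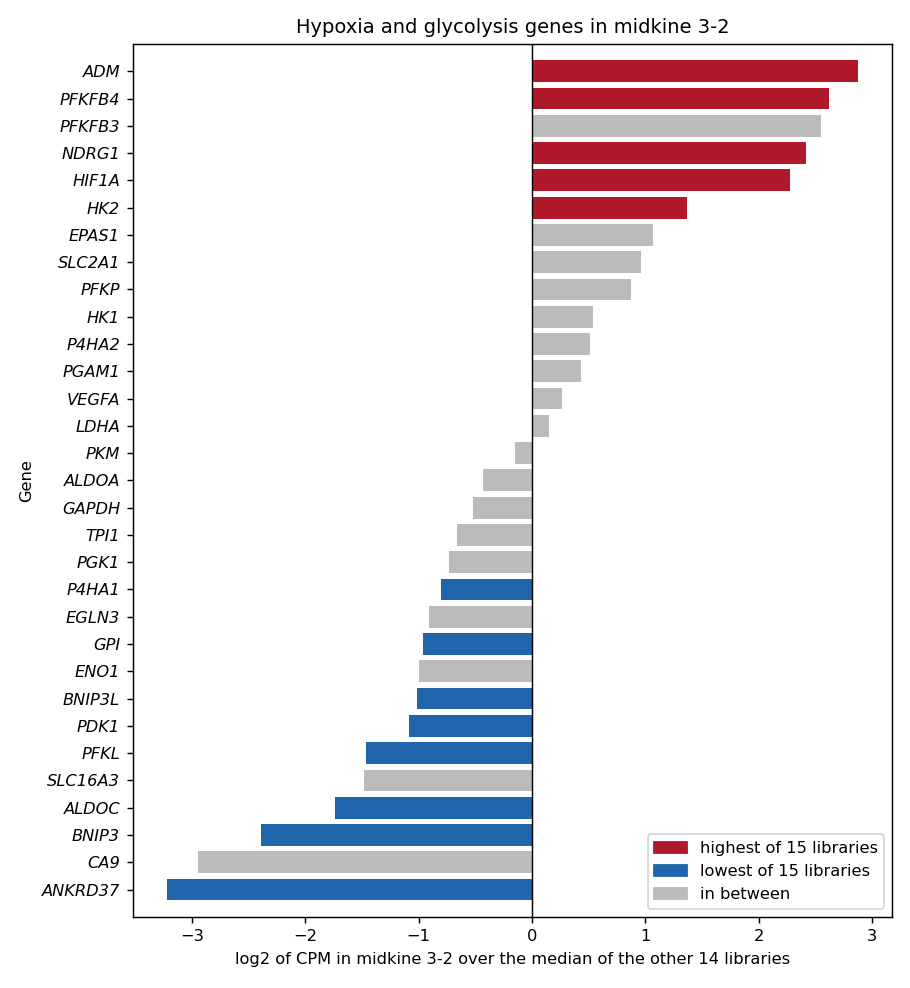
Log2 ratio of CPM in midkine 3-2 to the median of the other 14 libraries for the 31 tested members. Red bars mark members for which midkine 3-2 is the highest of 15 libraries (ADM, PFKFB4, NDRG1, HIF1A and HK2) and blue bars those for which it is the lowest (8 members, from P4HA1 to ANKRD37).

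Wider lists of the same pathways gave no called gene by edgeR. Of 37 other HIF pathway genes, 34 were tested and 26 were higher in midkine tumours, with a median log2 fold change of 0.31 and 10 at an unadjusted p under 0.05. Without midkine 1 these were 24, 0.29 and 7. Of all genes 55.7% were higher and 10.1% had such a p, and 52.9% and 10.3% without midkine 1. The count of 10 was 6 without midkine 3-2 (9.27% of all genes) and 3 with the title number as a replicate block (2.77%). Within the libraries with MYH4 reads and without midkine 1 it was 2 (6.73%). ANGPTL4, a HIF target that inhibits lipoprotein lipase, stood at 5.34 to 21.3 CPM (median 12.3) and 13.3 to 123 CPM (median 36.5), with 2.08 (SE 0.49, adjusted p = 0.399) and 2.02 (SE 0.50) without midkine 1. CITED2, which competes with HIF for its coactivator, stood at 44.8 to 127 CPM (median 75.0) and 82.3 to 205 CPM (median 135), with 0.80 (SE 0.26) and 0.75 (SE 0.26) without midkine 1. HMOX1 had 2.61 (SE 0.96) and 1.12 (SE 0.57) without midkine 3-2. These 3 were among the genes of smallest p in the list. DESeq2 called ANGPTL4 (adjusted p = 0.00886) in this list. The HIF partner ARNT had 0.32 (SE 0.22), the ubiquitin ligase subunit VHL -0.066 (SE 0.21) and the sensor EGLN2 0.065 (SE 0.18). Without midkine 1 they had 0.33, -0.047 and -0.036.

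Of 31 other glycolysis and pyruvate genes, 28 were tested. With midkine 1, 22 were higher, the median was 0.64 and 8 had an unadjusted p under 0.05. Without it 14 were higher, the median was -0.039 and 1 had such a p. The 4 of smallest p were HK3 at 1.38 (SE 0.45), or 1.52 (SE 0.42) without midkine 1, and ENO3, PGAM2 and PYGM at 5.67, 5.94 and 6.37, which became 0.20, -0.079 and 0.0010. HK3 is the hexokinase of white blood cells. It was highest in midkine 3-2 (12.5 CPM), followed by midkine 4-3 (6.70), 4-1 (6.52) and 2 (6.26). The neutrophil sum, with all 4 of its tested markers higher in midkine tumours, was 80.1, 51.7, 56.4 and 42.9 CPM in these 4, and 79.6 in midkine 4-2, where HK3 was 3.73. Of the macrophage markers 10 of 10 were higher in midkine tumours, at 257 to 778 CPM in vehicle and 352 to 3032 CPM in midkine libraries, with none at 0 in any library. Their sum did not follow HK3 over the libraries: it was highest in midkine 4-2, and 555 CPM in midkine 3-2 and 352 in midkine 2. The part of these cells in the level of HK3 was not tested. Over the same libraries all 10 endothelial, all 8 T cell and 10 of 10 tested fibroblast and matrix markers were higher too, none past the adjusted threshold. The T cell sum was 35.3 to 105 CPM in vehicle and 36.4 to 1509.8 CPM in midkine libraries, with none of the 8 at 0 in any library. The sum of the 10 tested fibroblast and matrix genes was 619.7 to 11046 CPM in vehicle and 384 to 145272 CPM in midkine libraries, with 1 of the 11 listed at 0 in some library. Their part in the members' values was not tested either.

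Counts of several enzymes may include reads of processed copies elsewhere in the genome. RefSeq names 81 pseudogene loci for GAPDH, 31 for ENO1, 30 for LDHA, 19 for PKM, 13 for PGAM1, 9 for ALDOA, 8 for PGK1 and 3 for TPI1. No source used here says how the counting treated reads that fit several places, and the levels of these 8 genes are uncertain to that extent.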

How the data were processed

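Poly(A)-selected RNA of 15 tumour pieces (3000 ng each) was sequenced in pairs of 150 bp on the Illumina HiSeq, as the labels' protocols state. The authors deposited whole-number read counts per gene symbol, not normalized. The submitters' processing notes name the build rn6. Aligner version, annotation, strand setting and counting mode were not given in those sources. Libraries were grouped by the treatment label. In R 4.3.3, edgeR 4.0.16 kept 11665 of 17463 genes with its expression filter by group, scaled libraries by the trimmed mean of M-values, and tested midkine against vehicle with the quasi-likelihood F test, adjusted over all genes kept (threshold 0.05). Each SE is the log2 fold change over the root of its F. DESeq2 1.42.0 and the other settings served as alternatives. The gene tests were checked on simulated data of 11665 genes, 200 of them changed. At a 2-fold change edgeR recovered 23% of the 200 with 0 false calls, and DESeq2 51% with 22 false calls. At a 4-fold change edgeR recovered 74.5% with 5 false calls, and DESeq2 86.5% with 29. The changed genes were drawn at random from all genes. The members varied more between libraries than all genes (median SD of log2 CPM 0.88 against 0.51), so recovery of members may be lower. A 2-fold or a 4-fold change of a member could therefore go uncalled by edgeR.

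Members and lists were chosen with earlier results of these data known. By rule all 33 members were given values, with the 4 genes of smallest p in each wider list (1 is not reported here), PFKM, ENO3, PGAM2, LDHB, ANGPTL4, EGLN2, VHL and ARNT; CXCR4, PPP1R3C, GYS1, GBE1, MXI1, KLF10 and the set of 5 shared libraries were chosen after their values were seen. All pairs of libraries within a group differed beyond sampling noise (least chi-square over its degrees of freedom, 19.9). Promoters were searched for the motif as plain letters. The number of counted reads limits genes such as SLC2A3 and PFKFB4.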

Additional observations from a re-analysis of the deposited data

Results flagged for a closer look

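In 6 of 62 groups of libraries (31 members in 2 treatment groups) 1 library lay far from the rest of its group by Dixon's criterion on log2 CPM, and chance flags about 1 in 20 groups. In midkine 1 these were ALDOA at 46662 CPM (next 2616), GAPDH at 17714 CPM (next 3255), PKM at 7336 CPM (next 1651) and, on the low side, HK1 at 88.1 CPM (next 208). In midkine 3-2 they were HIF1A at 519 CPM (next 148) and, on the low side, ANKRD37 at 1.10 CPM (next 4.45). All 6 fall in the midkine group and in 2 of its 9 libraries.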

How the results depend on the processing

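No member passed the threshold under any alternative, and the smallest adjusted p of a member ranged from 0.0624 (DESeq2) to 1 (replicate block). DESeq2 called 92 genes where edgeR called 0. Leaving out each library in turn kept 0 members and 0 genes called, gave 20 to 26 members higher and moved the members' median from 0.17 to 0.67. Of the 31 members, 18 kept their direction under every setting run and 13 turned at least once. With the title number as a replicate block, 0 genes were called, 323 had an unadjusted p under 0.05 (1178 without the block), the median was 0.16, and these turned: SLC2A1 0.11, BNIP3 -0.046, BNIP3L 0.059. Vehicle and midkine libraries of the same number did not deviate together (correlations -0.24 to 0.14), so the number is not taken as a pairing of the groups. These correlations do not compare libraries of 1 group that share a number, so they cannot say whether those came from the same animal. Within the 10 libraries with MYH4 reads these turned: PFKL 0.0046, BNIP3L 0.078, PGAM1 -0.050, HIF1A -0.084, EPAS1 -0.13. Within them without midkine 1: SLC2A1 0.18, PFKL 0.28, BNIP3L 0.14, HK1 0.090, HK2 -0.034, ENO1 0.22, EPAS1 -0.43. With libraries of a shared number summed, PGAM1 -0.12. Without both midkine 1 and midkine 3-2, chosen after seeing the data: PFKL 0.092, BNIP3L 0.10, HK2 -0.039, ENO1 0.062. With 1 library left out these ran across 0: VEGFA -0.14 to 0.25, SLC2A1 -0.30 to 0.42, PFKL -0.30 to 0.079, BNIP3 -0.076 to 0.71, BNIP3L -0.087 to 0.13, PGAM1 -0.13 to 0.31, PDK1 -0.070 to 0.32, SLC16A3 -0.087 to 0.53. The cause of each turn was not tested. Another size factor, no filter and removal of muscle genes turned none, and PFKFB4 had no value at a mean count of at least 50. By library total alone the shared top 5 libraries again held for 17 members. Depth limits SLC2A3 and PFKFB4 most.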
